A study of Sus scrofa with 40 samples.

Results

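Basque (B) pigs kept in an alternative housing system were compared with Basque pigs kept in a conventional one, by the RNA of their longissimus muscle (LM). The pigs were taken by the labels for breed and rearing conditions, which gave 20 of the 40 pigs of the study, 10 in alternative (A) and 10 in conventional (C) housing. The other 20 pigs were Large White (LW), 10 in each system, and serve here only to ask whether the housing difference depended on breed. All were castrated males of about 145 kg live weight at slaughter, fed the same standard diet. Conventional housing was a slatted floor indoors, whereas the alternative system gave bedding indoors and free access to an area outside. The methods placed littermates in different systems. The labels give neither litter nor sire nor slaughter session, so the model does not hold them and every P value treats the pigs as independent. LM was taken after exsanguination and frozen, and each pig had 1 array, on which its RNA (Cy3) competed with RNA pooled from all pigs (Cy5). Values are log2 of the Cy3 to Cy5 ratio after subtraction of the array median, so that 1 unit is a 2-fold change, and differences are A minus C.

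LM is a fast muscle that draws mainly on glycogen and glycolysis for its contraction. Activity, outdoor temperature and handling before slaughter are known to act on muscle through genes for contractile proteins, energy supply, heat shock proteins, stretch-responsive proteins of the sarcomere and the surrounding matrix. Bulk LM also holds fibroblasts, vessels, blood and other cells, whose RNA is measured together with that of the fibres.

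The array held 15198 gene probes of 60 bases, of which 12018 were tested because their Cy3 signal was marked as well above background on 10 or more of the 20 B arrays. Between 10447 and 13441 probes were well above background on an array, 11643 to 12767 on the C arrays and 10447 to 13441 on the A arrays, and the ranges overlapped. Intensities have no depth of counting, and what limits the precision was not tested. The probes of the fast myosin heavy chain MYH1, of skeletal actin ACTA1 and of lactate dehydrogenase LDHA were well above background on all 20 arrays, with mean log2 Cy3 signals of 15.1, 15.3 and 15.3, as the label of skeletal muscle requires. Symbols were available for 598 genes with 683 probes, 5.68% of those tested, all from the published list of genes higher in LW than in B pigs, so the genes named below are a selection by breed from these same pigs. The matching list of genes higher in B pigs was not used, because in it the probes of a shared contig carried differing symbols for 36 of 36 contigs, against 0 of 40 in the list that was used. A probe without a symbol is given by its probe name.

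A replicate 15 stood apart from the rest. The log2 ratios of this pig had an SD of 0.483 over the tested probes, against 0.272 to 0.376 for the other 19 B arrays, and its score on the first principal component was 35.3, against 7.67 for the next highest. The first 3 components held 19.4%, 11.7% and 9.63% of the variance, and apart from that array the A and C pigs overlapped on the first component and on the second one. Values without A replicate 15 are therefore given beside those of part of the genes. Of the named genes with an unadjusted P value under 0.05, ANKRD1, GADL1 and SNTB1 no longer reached it without that array. Of 5 array measures tested between the housing groups with a two-sided permutation test, the number of spots marked as outliers was 97.5 ± 166 (SD, n = 10) in C and 6.4 ± 6.74 in A (P = 0.0395, BH adjusted P = 0.197). The ranges of that measure overlapped, 1 to 506 spots in C and 1 to 23 in A, and such spots were left out. The remaining measures had adjusted P values of 0.69 to 0.914.

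**Figure D1:**
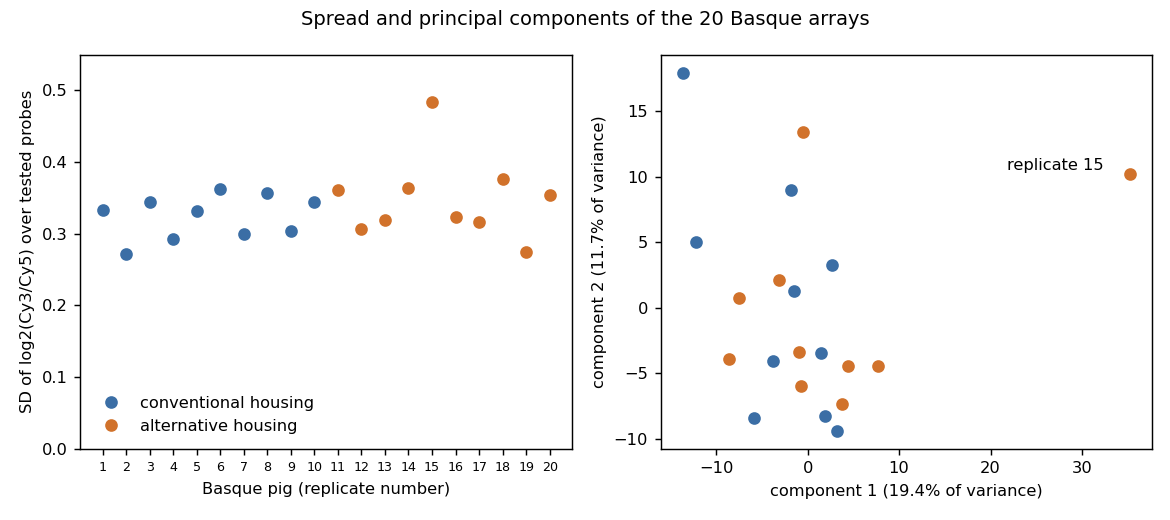
The left plot shows the SD of log2(Cy3/Cy5) over 12018 probes for each of the 20 B arrays by replicate number, and the right plot their scores on principal components 1 and 2 (19.4% and 11.7% of the variance), coloured by housing. A replicate 15 lies at an SD of 0.483 and a component 1 score of 35.3, away from the other 19 arrays, among which A and C pigs are mixed.

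In the LM of B pigs no probe passed the test between housing systems. With limma and slide in the model, 0 of 12018 probes (0%) had a BH adjusted P value under 0.05, and the lowest adjusted value was 0.944. At an unadjusted P value under 0.05 there were 455 probes, of which 113 (0.94%) were higher and 342 (2.85%) lower in A pigs, 3.79% of those tested in all. A threshold of 0.05 gives a larger share on average when no probe differs. Among the named genes at that threshold, ANKRD1 (-1.07), DNAJA4 (-0.52), CLU (-0.45) and TSPAN9 (-0.26) stood lower in A pigs, and GADL1 (0.53), SNTB1 (0.25) and C5ORF13 (0.22) higher. The A and C pigs overlapped in each of them, and in all 63 probes named by rule. An analysis in 2 steps, in which slide was removed before the test where its own P value was under 0.05, gave 0 probes at the adjusted threshold and 403 at the unadjusted one, 132 higher and 271 lower.

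Lower probes outnumbered higher ones at the unadjusted threshold under every setting but Cy3 intensity alone, though the size of the excess varied. The settings drew on the same pigs, and the excess itself was not tested. Without A replicate 15 the count at the adjusted threshold was again 0, and 132 probes were higher and 232 lower at the unadjusted one. Over all tested probes, 59.9% were lower in A pigs with that array and 50.1% without it, and the median difference was -0.020 and -0.00018. With Cy3 intensity alone 249 probes were higher and 83 lower. Counts moved by more than 1.5 times on leaving out some other single pigs. The number higher was 67 without C replicate 3, 186 without C replicate 6 and 75 without A replicate 20, and the number lower was 225 without C replicate 2, 216 without A replicate 11 and 568 without A replicate 12. A count of 0 at the adjusted threshold was found under all 37 other settings tried, at lowest adjusted P values down to 0.0777, which was the value without A replicate 14.

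The B arrays lay on 7 slides, of which 6 held pigs of both systems. The remaining slide held A replicate 19 alone, so with slide in the model that pig does not bear on the housing difference. For many of the genes below, the number of slides on which the mean of the A pigs lay under or over that of the C pigs is given out of those 6. Many of these genes were picked by P values from the same pigs and slides. Such counts, and those of pigs about the C median, thus describe the genes and are no separate support. A slide here is the glass slide named in the scanner output, and most slides held 1 or 2 pigs of a system.

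ANKRD1, a titin-associated protein of striated muscle that is induced by stretch and injury, had the largest difference of any tested probe. Its values in C pigs ran from -3.08 to 0.56 with a median of -1.78, and in A pigs from -4.24 to -0.32 with a median of -2.72. The groups overlapped over most of their ranges, although 8 of 10 A pigs lay under the C median. The difference was -1.07 (95% confidence interval -2.10 to -0.05), or 0.475 of the C level (0.233 to 0.968), with an unadjusted P value of 0.0415 and an adjusted one of 0.944. It was the only probe whose estimate passed 1 log2 unit. Without A replicate 15 the difference was -0.996 (unadjusted P = 0.0682). Within slides the sign was not uniform, with the A pigs lower on 4 slides and higher on 2, by differences from -3.04 to 1.87. Its probe is printed because it carried the largest difference of the comparison.
ANKRD1: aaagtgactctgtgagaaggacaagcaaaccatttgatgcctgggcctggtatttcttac

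DNAJA4 and CLU, both chaperones, were next in size among the named genes that were lower in A pigs at an unadjusted P value under 0.05. DNAJA4, a co-chaperone that works with heat shock proteins, ranged from -1.07 to 0.44 (median -0.57) in C and from -1.35 to 0.16 (median -0.96) in A pigs. The groups overlapped over most of the scale, while 8 of 10 A pigs were under the C median and the A pigs were lower on 5 of 6 slides. The difference was -0.52 (-1.01 to -0.03, unadjusted P = 0.0396), and -0.59 without A replicate 15. CLU, clusterin, a secreted chaperone, ranged from -1.12 to 0.28 (median -0.77) in C and from -1.49 to -0.49 (median -1.06) in A pigs. Here 4 C pigs lay above every A pig and 5 A pigs below the lowest C pig, so that the groups overlapped only in the middle of the scale. The difference was -0.45 (-0.82 to -0.08, unadjusted P = 0.0195), with the A pigs lower on 5 of 6 slides, and -0.38 without A replicate 15.

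TSPAN9, a membrane protein of the tetraspanin family, had the smallest unadjusted P value of the named genes. It ran from -0.76 to 0.00 (median -0.31) in C and from -0.81 to -0.30 (median -0.51) in A pigs. The ranges overlapped, 9 of 10 A pigs lay under the C median and the A pigs were lower on 6 of 6 slides, by -0.41 to -0.12. The difference was -0.26 (-0.41 to -0.11), unadjusted P = 0.00174 and adjusted P = 0.944, and it was -0.26 also without A replicate 15. The other tested probe of the same contig, which carries no symbol, gave -0.08 (unadjusted P = 0.146), the same sign at a smaller size, and the 2 probes were not tested against each other. The probe with the symbol is printed as the one with the smallest P value among named genes.
TSPAN9: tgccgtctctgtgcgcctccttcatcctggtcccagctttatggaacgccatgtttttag

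The remaining genes of the 10 with the smallest unadjusted P values on the lower side followed. S100A16, a calcium-binding protein, was lower in A pigs by -0.29 (-0.55 to -0.03, unadjusted P = 0.0335), and DBN1, the actin-binding protein drebrin, by -0.18 (-0.34 to -0.01, unadjusted P = 0.0358). DBN1 was lower on 6 of 6 slides, yet only 5 of 10 A pigs lay under the C median. LETM1, an ion transport protein of the inner mitochondrial membrane, gave -0.16 (-0.06 with its second probe), ACPL2, an acid phosphatase-like protein, -0.15, STRA13 -0.10 and TMEM61 -0.08. Their unadjusted P values by limma were 0.0834, 0.0734, 0.0587 and 0.0493, so of these only TMEM61 was under 0.05. With Agilent processed signals the TMEM61 difference was -0.39. The TMEM61 probe was dim, well above background on 9 C and 4 A arrays. On most A arrays it was thus not clear of background, so the size of its difference is not exact. The A pigs were lower on 4 of 6 slides for ACPL2 and on 5 of 6 for S100A16, LETM1, STRA13 and TMEM61. For each of these 6 genes the A and C ranges overlapped, and S100A16 rests on 9 C pigs since 1 spot was marked as an outlier. The sign for STRA13 turned with Cy3 intensity alone, where it was 0.023.

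On the higher side GADL1, a decarboxylase that acts on aspartate and cysteine sulfinic acid, had the largest difference among named genes with an unadjusted P value under 0.05. Its values were -2.38 to -0.27 (median -0.74) in C and -1.28 to 0.27 (median -0.60) in A pigs. The groups overlapped, with 3 A pigs above the highest C pig and 2 C pigs below the lowest A pig, and the A pigs divided evenly about the C median, 5 on either side. The difference was 0.53 (0.07 to 0.99, unadjusted P = 0.0255), or 1.45 times the C level, and A pigs were higher on 5 of 6 slides. The second probe for GADL1 gave 0.46 (0.06 to 0.87, unadjusted P = 0.028). Without A replicate 15 the values were 0.46 (unadjusted P = 0.0519) and 0.39 (0.0581). Both probes gave the same sign and a similar size, but they lie on the same contig and were read on the same arrays. The second was also picked by its own difference and P value, so it is no separate support.

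SNTB1, a syntrophin of the dystrophin complex, was higher in A pigs by 0.25 (0.01 to 0.50, unadjusted P = 0.0429), or 0.23 (unadjusted P = 0.0700) without A replicate 15, and 7 of 10 A pigs lay above the C median. C5ORF13 was higher by 0.22 (0.03 to 0.41, unadjusted P = 0.0232), with 8 of 10 A pigs above the C median but the A pigs higher on only 4 of 6 slides, against 5 of 6 for SNTB1. Both genes overlapped widely between the groups, with -0.82 to 0.12 in C and -0.84 to 0.48 in A pigs for SNTB1. SMOC2, a secreted calcium-binding protein of the matrix, ran from -0.33 to -0.17 (median -0.27) in C and from -0.29 to 0.24 (median -0.23) in A pigs. For this gene 4 A pigs lay above every C pig and the other 6 lay within the C range. Its difference was 0.14 (0.02 to 0.25, unadjusted P = 0.0218), higher on 6 of 6 slides.

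SLC25A1, the citrate carrier of mitochondria, was higher by 0.14 (0.03 to 0.25) and had the smallest unadjusted P value of the named genes on this side, 0.0162. It ranged from 0.06 to 0.50 in C and from 0.08 to 0.57 in A pigs, an almost complete overlap, with the A pigs higher on 6 of 6 slides. Its probe was dim, well above background on 8 C and 5 A arrays, and with Cy3 intensity alone the difference was -0.015. With loess within arrays the difference was 0.076 (unadjusted P = 0.128 by limma), and over all settings it reached 0.26 at most. The other genes of the 10 on this side were PLBD1, a phospholipase B-like protein, with 0.28, BEX4 with 0.16, GCHFR, a regulator of GTP cyclohydrolase, with 0.15, the acid phosphatase ACPT with 0.13 and the histone acetyltransferase KAT5 with 0.08. Of these, PLBD1 and BEX4 had unadjusted P values above 0.05, 0.0511 and 0.0549 by limma. For each of the genes from PLBD1 to KAT5 the A and C ranges overlapped. KAT5, GCHFR and ACPT each had 9 of 10 A pigs above the C median. The A pigs were higher on 6 of 6 slides for KAT5, on 5 of 6 for ACPT and on 4 of 6 for GCHFR, PLBD1 and BEX4. The other tested probe of the GCHFR contig, without a symbol, gave -0.0055 (unadjusted P = 0.958).

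**Figure D2:**
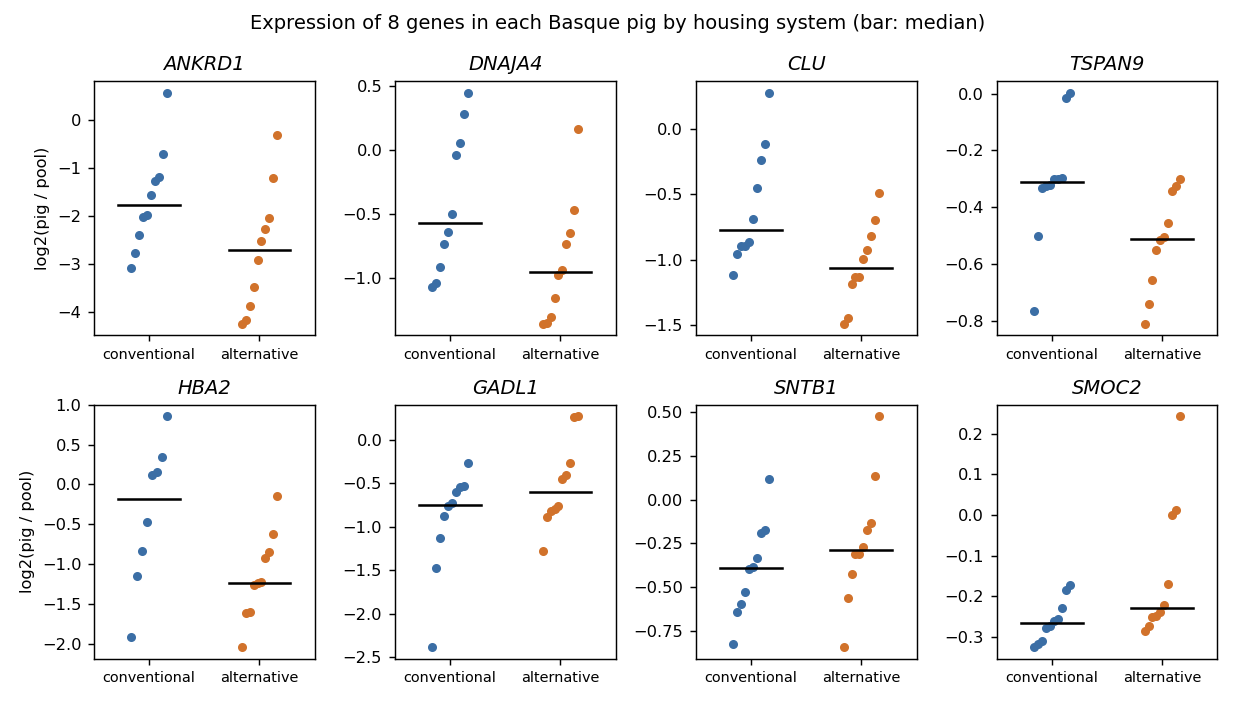
Each point is 1 B pig's log2(pig/pool) for 8 genes, by housing system, with a bar at the group median. The groups overlap in all 8 plots, and the medians for ANKRD1 are -1.78 in C and -2.72 in A pigs.

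Some probes without a symbol differed by as much as the named genes. Among probes with an unadjusted P value under 0.05, CB286077.1_1314 ran from -2.19 to 0.05 (median -1.05) in C and from -2.79 to -0.42 (median -1.97) in A pigs. Its difference of -0.78 (-1.30 to -0.26, unadjusted P = 0.00622) was the largest after ANKRD1 on the lower side, with 9 of 10 A pigs under the C median and overlapping ranges. CB286223.1_1571 was lower by -0.61 (-1.14 to -0.09, unadjusted P = 0.0253), also in 9 of 10 A pigs. On the higher side CA780016.1_1074 gave 0.36 (0.10 to 0.62, unadjusted P = 0.0106) and CB469072.1_2152 0.36 (0.03 to 0.69, unadjusted P = 0.0336), with 7 and 8 of 10 A pigs above the C median. All 4 had an adjusted P value of 0.944. The paper links most probes of the array to annotated sequences, but that annotation was not among the sources used here. Those sources do not pair these 4 probes with genes, and their sequences are printed so that they can be.
CB286077.1_1314: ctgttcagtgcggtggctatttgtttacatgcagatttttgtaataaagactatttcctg
CB286223.1_1571: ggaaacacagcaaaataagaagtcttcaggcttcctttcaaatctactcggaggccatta
CA780016.1_1074: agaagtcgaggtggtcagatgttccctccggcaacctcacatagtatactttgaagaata
CB469072.1_2152: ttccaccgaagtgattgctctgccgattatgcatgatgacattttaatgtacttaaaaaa

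Gene lists for functions of muscle and for the other cells of the sample described what the named genes share. Of 366 genes on 25 lists, 36 had a symbol in the list used, and 17 lists held at least 1 of them. A further 10 lists with 122 genes were drawn from the symbols themselves. Of the 598 named genes 309 were higher and 289 lower in A pigs, with a median difference of 0.0048, while 4818 of all tested probes were higher and 7200 lower. At an unadjusted P value under 0.05 there were 8 named genes higher and 7 lower, 2.51% of the 598 against 3.79% of all tested probes, and limma called 0 at the adjusted threshold. Of 75 genes with more than 1 probe, 23 had probes that differed in sign, in 0 of them with the other probe at an unadjusted P value under 0.05.

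Genes of contraction lay near 0. MYH1 ran from -1.87 to -0.33 (median -0.89) in C and from -1.79 to -0.47 (median -1.14) in A pigs, and differed by -0.05 (-0.36 to 0.26). ATP2A1, the calcium pump of fast fibres, gave -0.05 (-0.36 to 0.26), ACTA1 0.02 (-0.26 to 0.30) and tropomyosin TPM1 0.07. For MYH1 the interval ran from 0.779 to 1.20 times the C level, so by this probe MYH1 was neither far lower nor far higher in A pigs. The 3 genes on the fast fibre list, MYH1, ATP2A1 and TPM1, had a median difference of -0.049 with A replicate 15 and 0.029 without it. On the slow fibre list TPM3, the slow tropomyosin, gave -0.09 (-0.22 to 0.05) and CASQ2, the calsequestrin of slow fibres, 0.02 (-0.26 to 0.29), with a list median of -0.035. The developing fibre list held MYH3, embryonic myosin, with -0.02 (-0.36 to 0.31), which was -0.10 without A replicate 15, and the cell adhesion protein NCAM1 with 0.02 (-0.18 to 0.21), at a median of -0.0035.

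The wider list of sarcomere and calcium handling genes had 6 of 13 genes higher and 7 lower, with a median of -0.025 that was 0.0059 without A replicate 15. ANKRD1 stood alone on it with its -1.07. The giant filament protein NEB was next, at -0.23 (-0.56 to 0.10), and -0.13 without A replicate 15, and the structural protein MYBPC3 was highest at 0.09 (-0.14 to 0.31). Apart from ANKRD1, 0 genes of the list had an unadjusted P value under 0.05. Of all tested probes 3.79% reached that threshold, so for a list of 13 genes this says little.

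Estimates for glycolysis and the supply of energy went both ways. LDHA, the last enzyme of anaerobic glycolysis, ran from -2.38 to -0.52 (median -1.18) in C and from -2.10 to -0.69 (median -1.15) in A pigs. The difference was 0.04 (-0.32 to 0.41), and 0.11 without A replicate 15, and the groups covered much the same range. GAPDH gave 0.02 (-0.17 to 0.20), the phosphoglucomutase PGM1 -0.04 and the phosphorylase kinase subunit PHKA1 0.03, and the 4 genes of the glycolysis and glycogen list had a median of 0.025. On the wider list of glucose, glycogen and phosphate transfer genes 9 of 14 were higher and 5 lower, with a median of 0.025, adenylate kinase AK1 highest at 0.15 (-0.09 to 0.40) and phosphofructokinase PFKP lowest at -0.06 (0.0028 with its second probe). That median was 0.11 in the log2 ratios deposited by the authors and 0.12 with Cy3 intensity alone. Regulators of oxidative metabolism were the AMP-activated kinase subunit PRKAB2 at -0.04 (-0.19 to 0.11), with 0.0040 from its second probe, and the mitochondrial deacetylase SIRT3 at -0.08 (-0.23 to 0.07), with a list median of -0.057 that became 0.087 with Cy3 intensity alone.

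The lists for lipid and sterol metabolism and for amino acid supply, which leave out GADL1, held no gene at an unadjusted P value under 0.05, a threshold that 3.79% of all tested probes reached, so that for lists of 11 and 8 genes this says little. Of 11 genes for lipid and sterol metabolism 5 were higher and 6 lower, with a median of -0.0055, from the choline kinase CHKB at -0.16 (-0.37 to 0.04) to the acyltransferase AGPAT3 at 0.07 (-0.09 to 0.22). Of 8 genes for amino acid supply 5 were higher and 3 lower, with a median of 0.063. The largest on that list was CTH, which makes cysteine, at 0.22 (-0.03 to 0.47). It was followed by BCKDHB, of branched-chain amino acid breakdown, at 0.14 (-0.14 to 0.42). No gene for the citric acid cycle and respiratory chain, fatty acid uptake and oxidation or fat storage in adipocytes had a symbol in the list used, so their probes could not be picked out and nothing can be said of them here.

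Stress genes with a symbol were few. BAG3, a co-chaperone for damaged muscle proteins, ran from -1.68 to 0.18 (median -1.11) in C and from -1.84 to 0.54 (median -0.78) in A pigs. Its difference was 0.05 (-0.63 to 0.74) and that of DNAJA4 -0.52, with overlapping intervals, and the pair gave the heat shock and chaperone list a median of -0.23. That median ran from -0.39 to -0.15 on leaving out single pigs, and from -0.26 to -0.11 over the other settings. On the wider list of chaperone and stress genes 6 of 10 were higher and 4 lower, with a median of 0.041. CLU, at -0.45, was not on that list. The glucocorticoid-induced kinase SGK1 gave 0.05 (-0.20 to 0.30), the only gene of its list with a symbol, and the immediate early gene MYC gave 0.06 (-0.16 to 0.28), likewise alone on its list. The antioxidant list held GPX8, a glutathione peroxidase of the endoplasmic reticulum, at 0.08 (-0.31 to 0.48). For heat production ATP2A1 and the thyroid hormone receptor THRB, at 0.05 (-0.17 to 0.28), gave a median of 0.0012. No gene of the circadian clock had a symbol in the list used.

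Growth and protein turnover followed. CAST, calpastatin, the inhibitor of the calpain proteases that soften meat, ran from -0.40 to 0.35 (median 0.03) in C and from -0.68 to 0.06 (median -0.12) in A pigs. Although 9 of 10 A pigs were under the C median, the ranges overlapped, the A pigs were lower on 4 of 6 slides and the difference was -0.16 (-0.38 to 0.06, unadjusted P = 0.151). It ran from -0.22 to -0.08 on leaving out single pigs and was -0.32 with Agilent processed signals. It was the only gene of muscle protein breakdown with a symbol in the list used. The insulin-like growth factor IGF1 gave -0.01 (-0.23 to 0.21) and the translation inhibitor EIF4EBP1 0.05 (-0.08 to 0.18), with a growth signalling median of 0.021. Of 10 genes for growth signals 3 were higher and 7 lower, at a median of -0.022, with the ephrin EFNA1 lowest at -0.27 (-0.66 to 0.11), although its second probe gave -0.07. Translation had 4 of 8 genes higher and a median of -0.0045, within -0.09 to 0.05. Cell division had 6 of 10 higher and a median of 0.027, with the replication factor GINS2 lowest at -0.18 (-0.41 to 0.06). When the test was kept to the most variable probes only 3 of those 10 genes were left, at a median of -0.11.

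Matrix genes lay on both sides of 0. On the list of collagens and matrix 4 of 6 genes were higher and 2 lower at a median of 0.018. On the wider list of 22 matrix genes 11 were higher and 11 lower at a median of -0.0016. SMOC2, at 0.14, was the highest of these and the only one with an unadjusted P value under 0.05. Of all tested probes 3.79% reached that threshold, so 1 of 22 genes says little about the list. COL1A2, of fibrillar collagen, ran from -1.75 to 0.64 (median -0.44) in C and from -1.23 to 0.47 (median -0.49) in A pigs, and differed by 0.01 (-0.48 to 0.50). Its pigs thus differed far more from each other than the systems did. COL4A2, of basement membrane collagen, gave -0.20 (-0.50 to 0.10) with A replicate 15 and -0.11 without it, in both cases with 8 C pigs, and the other tested probe of its contig, without a symbol, -0.02. The small proteoglycan DCN gave 0.03 (-0.21 to 0.26) and the matrix protein DPT -0.04 (-0.27 to 0.20), and these made up the fibroblast markers with a median of -0.0047. Vessel wall markers were the smooth muscle actin ACTA2 at 0.01 (-0.24 to 0.26) and the pericyte receptor PDGFRB at -0.14 (-0.35 to 0.07), with a median of -0.065 that was -0.0029 without A replicate 15.

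Blood was represented by HBA2, the alpha chain of haemoglobin, alone of the 9 genes on its list. Its values were -1.91 to 0.86 (median -0.18) in the 8 C pigs with a usable spot and -2.04 to -0.14 (median -1.23) in the A pigs. In 9 of 10 A pigs it was under the C median, while the lowest C pig lay near the lowest A pig, so the groups overlapped. The A pigs were lower on 4 slides and higher on 1. The difference was -0.65 (-1.44 to 0.14) with an unadjusted P value of 0.0978 by limma, and the other HBA2 probe gave -0.67. It was -0.66 without A replicate 15, and ran from -1.02 to -0.30 on leaving out single pigs. Among listed genes this was the largest difference outside the sarcomere list, and it did not pass. Fewer cells of a type and less RNA per cell cannot be told apart in bulk muscle, and the part of blood in any other difference was not tested.

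Interferon and immune genes lay on both sides of 0. The 4 genes of the interferon response list had a median of 0.039, with the antiviral protein MX2 at 0.06 (-0.09 to 0.21) and the interferon regulators IRF7 at 0.10 (-0.05 to 0.26) and IRF8 at -0.0055. On the wider list of 16 interferon and immune genes 9 were higher and 7 lower at a median of 0.018. The ends of that list were the interleukin 10 receptor chain IL10RB at -0.31 (-0.78 to 0.15) and the chemokine receptor CXCR7 at 0.18 (-0.10 to 0.46). Markers of macrophages, lymphocytes, antigen presentation and nerve had no symbol in the list used.

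**Figure D3:**
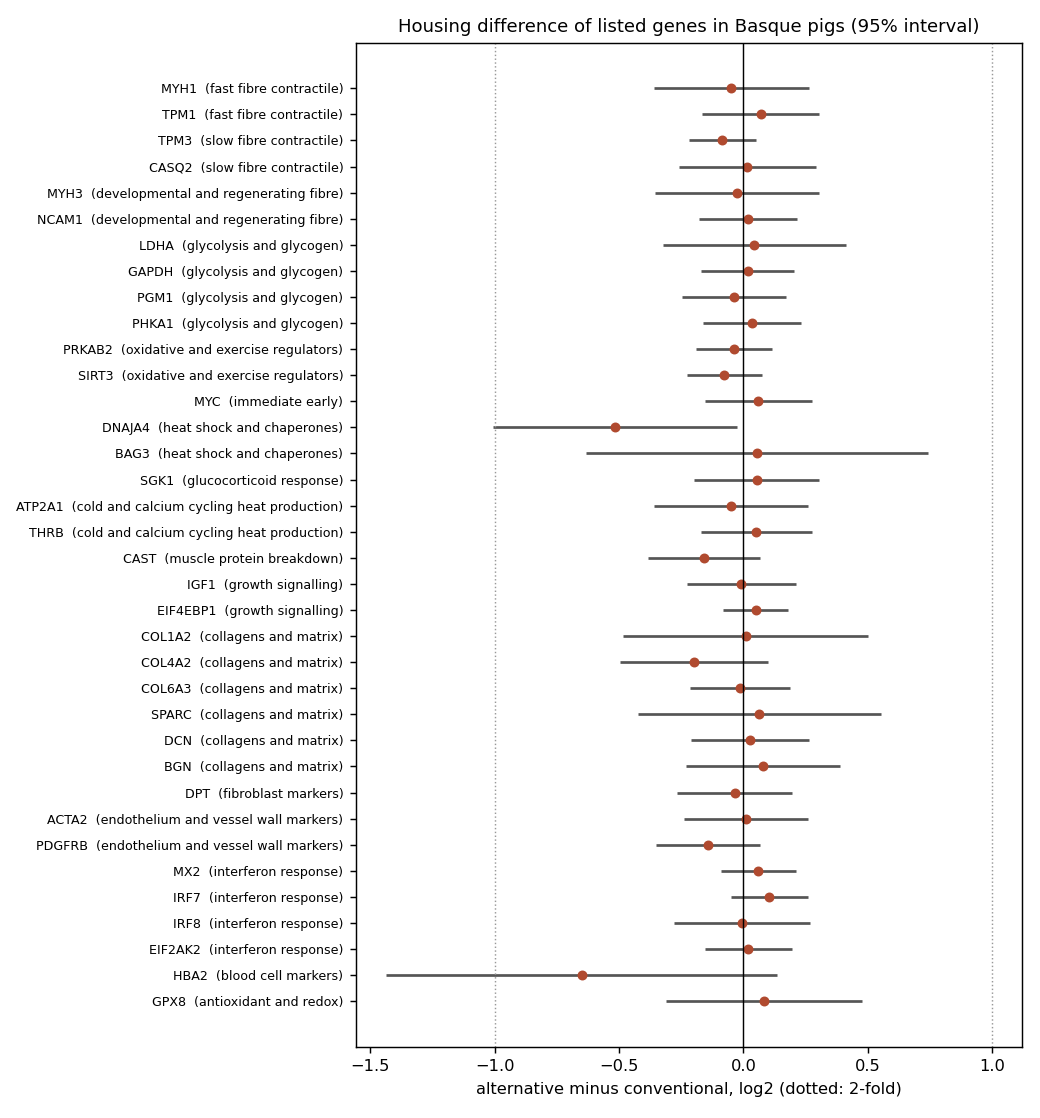
Points are the A minus C difference in log2 of listed genes with their list in brackets, bars are 95% confidence intervals, and dotted lines mark a 2-fold change. DNAJA4 at -0.52 is the only gene shown whose interval leaves out 0, and HBA2 at -0.65 has the widest interval.

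How large a housing difference these arrays leave was read from the intervals. For 99.7% of the tested probes the 95% confidence interval lay within a 2-fold change in either direction, and for 97.8% within a 1.5-fold change. The median interval reached 0.15 to either side of its estimate, and the median size of a difference was 0.054, with 95% of probes under 0.19. Only 36 probes had an interval that reached beyond 2-fold. Among named genes these were ANKRD1, DNAJA4, HBA2 with both its probes, ADAMTS8, RTF1 and ZNF7. These values are for normexp with an offset of 50, and the counts moved with the processing. Probes within 2-fold numbered 11982 here, 11833 with Agilent processed signals and 11981 to 11993 with the other settings. Within 1.5-fold they numbered 11756, 10986 and 11792 to 11824. How far the log2 ratios of either processing match the fold change in RNA was not tested. For most probes a 2-fold difference in the ratios as processed here is thus outside the interval, whereas for the genes just named it is not.

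Several of those genes were variable among pigs whatever their housing. After ANKRD1, whose SD over the 20 pigs was 1.28, came ADAMTS8, a secreted metalloprotease, with 1.17. ADAMTS8 ran from -4.19 to -0.88 (median -2.70) in C and from -3.96 to -0.26 (median -2.08) in A pigs, and differed by 0.10 (-0.91 to 1.11). The difference was -0.15 without A replicate 15 and ran from -0.29 to 0.42 over all settings, so its sign is open. Both groups spread widely and over much the same range. The transcription elongation factor RTF1 (SD 0.95) differed by 0.30 (-0.67 to 1.27), with 0.02 to 0.87 on leaving out single pigs, the zinc finger gene ZNF7 (0.93) by 0.62 (-0.10 to 1.34) and the neuronal membrane protein NRN1 (0.77) by -0.06 (-0.76 to 0.64). ZNF7 had the largest difference of these on the higher side, with 7 of 10 A pigs above the C median and an unadjusted P value of 0.0865, on a probe that was well above background on 6 C and 7 A arrays. It ran from 0.39 to 1.51 over all settings, with the highest value from Agilent processed signals. HBA2 had an SD of 0.81, C6ORF64 of 0.71, BAG3 of 0.69, the RNA-binding protein HNRNPA1L2 of 0.62 and the non-coding HCG11 of 0.61. The differences for C6ORF64, HNRNPA1L2 and HCG11 were -0.07, -0.11 and 0.10, and that of HCG11 was 0.0085 without A replicate 15. On leaving out single pigs C6ORF64 ran from -0.17 to 0.06 and HNRNPA1L2 from -0.30 to 0.17. Likewise HCG11 ran from -0.0081 to 0.33 and NRN1 from -0.20 to 0.28, so the signs of these genes are open.

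Whether the pigs of 1 system were more alike was asked from each pig's distance to the median of its group. With limma 1 of 12018 probes (0.00832%) passed at a BH adjusted P value under 0.05, and 0 without A replicate 15. In simulated data almost none of the probes given a larger SD passed at that threshold. The count therefore does not show that the spreads were alike. At an unadjusted P value under 0.05 the distances were larger in A pigs for 179 probes (1.49%) and smaller for 147 (1.22%), and without A replicate 15 for 106 and 176. Leaving out any 1 A pig lowered the number larger, to between 83 and 153, and leaving out any 1 C pig lowered the number smaller, to between 75 and 113. The median of 9 pigs is a pig's own value, at a distance of 0, so counts with 9 and with 10 pigs in a group are not directly comparable. With all pigs the direction turned with loess within arrays (149 larger and 247 smaller), with no background correction (132 and 221), with Agilent processed signals (178 and 187) and with slide means removed (46 and 269). Of the named genes described here only SGK1 reached that threshold, with a mean distance of 0.36 in C and 0.17 in A pigs, at an unadjusted P value of 0.0379.

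The probe that passed, F22946.1.s_1830, has no symbol and is described because its values were seen to pass. In C pigs it ran from -0.98 to -0.29 with a median of -0.64. The A pigs fell into 2 sets, 5 from -1.86 to -1.46 and 5 from -0.47 to 0.02, with no A pig between. The lower A pigs lay on slides 2, 3, 4, 5 and 7 and the higher ones on slides 1, 4 and 6, so that only slide 4 held A pigs of both sets. The C pigs on slides 1 and 6, at -0.71, -0.79 and -0.62, lay under the A pigs of those slides, and the part of slide in the sets was not tested beyond the setting below. The mean distance to the group median was 0.66 in A and 0.14 in C pigs (unadjusted P = 3.98e-08, adjusted P = 4.78e-04). With 5 pigs on either side the A median fell in the gap, and on leaving out any 1 of the 10 A pigs it became a pig's own value and the probe no longer passed, at unadjusted P values of 0.00865 to 0.0105. It did not pass with slide means removed (P = 0.204), with Agilent processed signals (P = 1.25e-04) or with no background correction (P = 6.33e-04) either. The values of the LW pigs ran from -0.81 to 0.99 in C and from -1.74 to 1.02 in A housing. The lowest LW pigs, at -1.74, -1.67 and -1.45, were all in A housing. Whether the spread differed between systems in LW pigs was not tested. The sequence is given because it is the only probe that passed any test between the systems.
F22946.1.s_1830: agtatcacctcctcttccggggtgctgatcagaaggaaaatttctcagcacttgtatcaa

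**Figure D4:**
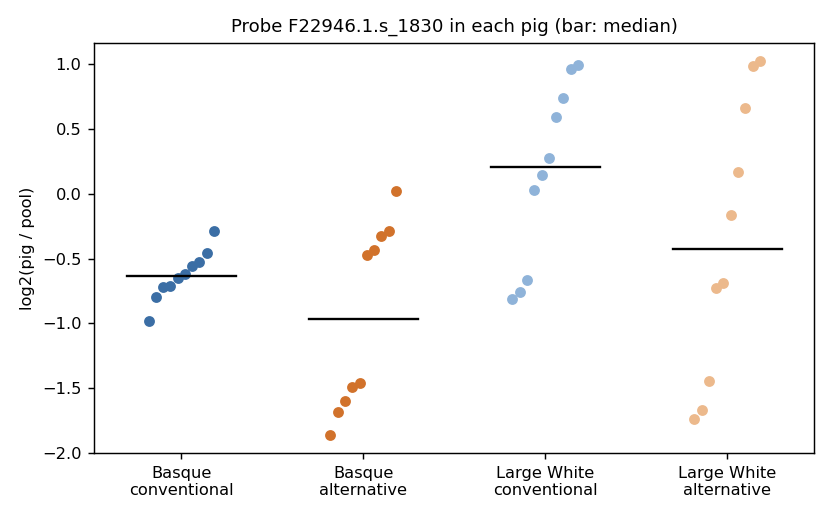
Each point is 1 pig's log2(pig/pool) for probe F22946.1.s_1830 in the 4 groups of breed and housing, with a bar at the group median. B pigs in A housing lie either between -1.86 and -1.46 or between -0.47 and 0.02, and B pigs in C housing between -0.98 and -0.29.

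The last comparison asked whether housing acted differently in B and LW pigs. With limma on all 40 arrays, 0 of 12018 probes (0%) had a BH adjusted P value under 0.05 for the interaction of breed and housing, at a lowest value of 0.973, and 304 (2.53%) had an unadjusted one under 0.05. Without A replicate 15 these counts were 0 and 238. In LW pigs alone limma likewise called 0 probes, with 255 at the unadjusted threshold, 126 higher and 129 lower in A pigs. The 2 breeds share no pig, though they share the pool and the slides. Of the 455 probes at an unadjusted P value under 0.05 in B pigs, 248 (54.5%) had the same sign in LW pigs, and 4 reached that threshold in both breeds with the same sign. Over all tested probes the sign was the same for 47.7%. These shares were not tested against each other.

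ANKRD1 had the largest of the interactions named. Its housing difference was -0.997 in B and 0.998 in LW pigs in the joint model, an interaction of -1.99 (SE 0.72, unadjusted P = 0.00893, adjusted P = 0.973), which did not pass and was -1.89 without A replicate 15. In LW pigs fitted alone it was 1.04 (SE 0.57, unadjusted P = 0.0868). The other genes with the smallest unadjusted P values for the interaction were CLEC11A, a secreted growth factor, at 0.22 (unadjusted P = 0.0151), the thiol dioxygenase ADO at 0.24 (0.0172), the ribonucleoprotein GAR1 at -0.30 (0.0208) and the peptidase NLN at -0.27 (0.0224). Their differences in B pigs alone were small, 0.08, 0.06, -0.10 and -0.06, and in LW pigs alone they were -0.17, -0.16, 0.20 and 0.19. DNAJA4, CLU, TSPAN9 and GADL1 gave -0.02, -0.36, -0.15 and 0.36 in LW pigs, with interactions of -0.34, -0.11, -0.06 and 0.14 at unadjusted P values from 0.382 to 0.787. A dependence on breed was therefore not detected for any named gene.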

How the data were processed

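LM RNA of 20 B pigs was used, 1 array per pig, with the 20 LW arrays for the interaction. The authors deposited scanner output giving the intensity of each spot in Cy3 (pig) and Cy5 (pool), with marks for spots that were saturated, non-uniform or clearly brighter than background. The same deposited output holds intensity values that the Agilent software had corrected for background and dye. A matrix of log2 ratios of pig to pool, also deposited, covers 11373 of the tested probes. These correlated at 0.983 to 0.996 with the Agilent ratios on 19 B arrays and at 0.680 for A replicate 15. What was done to that array is not given in the sources used.

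Under R 4.3.3, limma 3.58.1 corrected background by normexp with an offset of 50, and log2(Cy3/Cy5) had the array median subtracted. Control spots and outliers were left out. Probes whose Cy3 signal was marked as well above background on 10 or more B arrays were tested with lmFit and eBayes, housing and slide in the model, and BH adjustment over 12018 probes, with calls at 0.05. The interaction used all 40 arrays, the spread test each pig's distance to its group median, without slide. Array measures were compared by two-sided permutation tests (100000 resamples, scipy 1.17.1). The code was tested on simulated data. There the spread test called almost none of the probes simulated with a larger SD at the adjusted threshold, so it can miss even large differences in spread.

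The pigs, lists and named genes were chosen with earlier results of these data known, and the 10 wider lists after the symbols and the data were seen. Symbols, but no values, came from the supplementary list of genes higher in LW pigs, with 1 probe per gene, the brightest in Cy3. The list of genes higher in B pigs was left out because its symbols differed between probes of the same contig. Genes are named as the 10 higher and 10 lower with the smallest unadjusted P values, the first 2 with a symbol on each of the 25 lists, the 5 probes with the largest difference in each direction (at most 2 without a symbol), the 5 genes with the smallest P value for the interaction, and the 10 with the largest SD. Other genes on the lists and probe F22946.1.s_1830 were added after their values were seen. Alternatives were other background correction and normalization, other filters, other treatment of slide and of marked spots, array weights and leaving out each pig.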

Additional observations from a re-analysis of the deposited data

Results flagged for a closer look

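In each group of 8 to 10 pigs with a usable spot a value was set apart when its gap to the nearest other pig was large against the range of the group (Dixon's test at 95%, with the critical value for the number of pigs). Chance sets apart about 1 in 20 groups. Of 126 groups, for the named probes in A and in C pigs, 9 (7.14%) held such a pig, 4 in C and 5 in A.

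Among the C pigs, replicate 10 was high for BEX4 at -0.15 and low for the proteoglycan DCN at -0.91, replicate 8 was high for the peptidase NLN at 0.27, and replicate 2 was high for the non-coding HCG11 at 0.43. Among the A pigs, replicate 11 was low for RTF1 at -2.92 and for HNRNPA1L2 at -2.30, replicate 20 was high for NCAM1 at 0.45, replicate 15 was low for COL4A2 at -1.29, and replicate 14 was high for probe CB286223.1_1571 at 0.43.

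Of 16 groups for array measures, 4 held an array that stood apart. A replicate 15 had an SD of log2 ratios of 0.483 and a component 1 score of 35.3, both the highest of the A pigs. C replicate 10 had 506 spots marked as outliers and A replicate 18 had 23, each the most of its group. What sets these pigs or arrays apart was not tested.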

How the results depend on the processing

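No paired analysis was possible because the C pigs carry replicate numbers 1 to 10 and the A pigs 11 to 20, so that no number is shared, and litter is not in the labels.

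The count of probes called for housing was 0 under all 37 settings, and for the interaction 0 under each setting run. For probes at an unadjusted P value under 0.05, a test kept to the most variable probes (1 in 3) left 148, 9 higher and 139 lower, and the B contrast from all 40 arrays gave 292, 182 of them lower. The number higher was 193 with no background correction, 249 with Cy3 intensity alone, 53 with probes well above background on all 20 arrays, 54 with no slide term, 69 with slide as a random block and 208 with array weights. The number lower was 83 with Cy3 alone and 219 in the series matrix. Leaving out single pigs gave 67 to 186 higher and 216 to 568 lower. For the interaction the unadjusted count was 497 with no slide term, 468 with slide as a random block and 493 with array weights. Over these and the other settings run, the interaction ran from -0.60 to -0.22 for NLN and from -0.33 to -0.24 for GAR1. It ran from 0.12 to 0.37 for CLEC11A and from 0.14 to 0.32 for ADO.

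For the spread between pigs the call was 0 with no background correction, with Agilent processed signals and with slide means removed, and 0 to 1 on leaving out single pigs. Probes with larger distances in A pigs numbered 46 with slide means removed and 83 to 224 on leaving out single pigs. Those with smaller distances numbered 221 with no background correction, 247 with loess within arrays, 269 with slide means removed and 75 to 179 on leaving out single pigs. Probes with an interval within 2-fold numbered 11833 to 11993 and within 1.5-fold 10986 to 11824.

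Of the list medians, that of oxidative and exercise regulators was 0.087 with Cy3 alone, and that of glucose, glycogen and phosphate transfer 0.10 with Agilent processed signals, 0.12 with Cy3 alone and 0.11 in the series matrix. Cell division gave -0.11 among the most variable probes, with 3 genes. All tested probes gave 0.014 with Cy3 alone and -0.078 among the most variable probes. SLC25A1 gave -0.015 and STRA13 0.023 with Cy3 alone, the reverse of their signs elsewhere. The cause of these moves was not tested. Over all settings, single pigs left out included, C5ORF13 ran from 0.17 to 0.50, GADL1 from 0.35 to 0.81, SNTB1 from 0.15 to 0.36, PLBD1 from 0.17 to 0.47, BEX4 from 0.10 to 0.30, S100A16 from -0.36 to -0.14, DBN1 from -0.42 to -0.13, TMEM61 from -0.39 to -0.05, COL4A2 from -0.26 to -0.03, ACPL2 from -0.24 to -0.10, LETM1 from -0.21 to -0.10, SMOC2 from 0.07 to 0.19, ACPT from 0.08 to 0.23 and KAT5 from 0.04 to 0.10. SLC25A1, TMEM61, ZNF7 and CLEC11A were well above background on part of the arrays, CLEC11A on 8 C and 8 A arrays. So were RTF1 (8 C and 9 A), NRN1 (9 and 9) and IRF7 (10 and 9). C5ORF13, IGF1 and the second GADL1 probe were so on 9 C and 10 A arrays.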
